A study of Mus musculus with 6 samples.

Results

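The genes of iron uptake, storage and sensing described here are Tfrc, Slc11a2, Slc40a1, Fth1, Ftl1, Ireb2, Aco1, Ncoa4, Cp and Steap3. They were chosen by gene name for their roles in iron transport, storage, ferritin turnover and iron regulation, and each of the 10 stood once among the 54532 named genes of the count table. Their mRNA was compared between 2 groups of 3 mouse kidney libraries, labelled WT and Lpar3-/-. Every animal of both groups was kept for 12 h in a normobaric chamber at 8% oxygen, so the groups share the hypoxia and differ, by the labels, only in whether lysophosphatidic acid receptor 3, a receptor for a signalling lipid, is present. The labels give no strain, age or sex, do not name the altered part of Lpar3, and do not say that each library came from its own animal. The p-values therefore measure the spread between libraries, part of which may be technical. Normoxic kidneys were not analysed here.

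Cells take up iron bound to transferrin through the transferrin receptor, reduce it in endosomes, carry it to the cytosol by a divalent metal transporter, and store the surplus in ferritin, a shell of heavy and light chains. Ferritin is opened again when the receptor NCOA4 delivers it to lysosomes, and iron leaves the cell through ferroportin with the help of a copper oxidase. The iron regulatory proteins IRP1 (gene Aco1) and IRP2 (gene Ireb2) bind a hairpin, the iron-responsive element, in several of these mRNAs when iron is scarce. Bound in front of the coding sequence the hairpin blocks translation, as in the ferritins. Bound behind it, the hairpin protects the mRNA from decay, as in Tfrc. In the kidney, proximal tubule cells also recover iron from filtered proteins.

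The hairpins shown are those that a pattern for the element found in the members, not a full list of what IRP1 and IRP2 bind. They were read from GENCODE M21 transcripts (GRCm38), on the transcript strand, as a C, 5 bases, the loop CAGTGN and 5 bases that pair with the first 5, with G-T pairs allowed. Each is given as 29 bases, 5′ to 3′, with the loop in capitals.
Fth1, 5′ UTR, chr19:9982732-9982760, plus strand: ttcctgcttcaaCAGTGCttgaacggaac
Ftl1, 5′ UTR, chr7:45459779-45459807, minus strand: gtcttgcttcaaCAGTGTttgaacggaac
Slc40a1, 5′ UTR, chr1:45925465-45925493, minus strand: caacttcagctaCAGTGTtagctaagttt
Tfrc, 3′ UTR, chr16:32631219-32631247, plus strand: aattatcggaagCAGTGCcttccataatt
Tfrc, 3′ UTR, chr16:32631598-32631626, plus strand: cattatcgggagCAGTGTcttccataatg
Tfrc, 3′ UTR, chr16:32631663-32631691, plus strand: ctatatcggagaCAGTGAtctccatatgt
Tfrc, 3′ UTR, chr16:32631710-32631738, plus strand: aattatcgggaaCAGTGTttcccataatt

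The pattern stood in a 5′ UTR of 3 of the 10 members, against 31 of 20916 protein-coding genes (0.148%), and in a 3′ UTR of 1 of the 10, against 129 of 21707 (0.594%). The members were chosen for roles that include iron regulation, so the contrast is not a test of them. These shares are over whole UTRs of unequal length. The pattern is strict, so the lack of a match in Slc11a2 and the other members says only that these letters are not there. It stood in 4 of 5 coding Fth1 transcripts with a 5′ UTR, 1 of 2 of Ftl1, 1 of 4 of Slc40a1 and 1 of 2 Tfrc transcripts with a 3′ UTR. Counts were made per gene, so forms with and without the hairpin could not be told apart. The counts measure mRNA, and translation was not measured.

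In 300-base RefSeq promoter windows (GRCm38.p6), 8 members had an entry, and 2 of them held ACGTG, the core of the hypoxia response element, on either strand. Those were Tfrc, in 2 of 2 windows, and Ncoa4, in 2 of 3. Over all 27025 genes with an entry the share was 21.8%.

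No member passed the test of the difference between the groups after adjustment over all genes. EdgeR's quasi-likelihood test with Benjamini-Hochberg adjustment called 0 of the 10 at an adjusted p under 0.05, where 0.374% of the 15225 genes tested were called, and DESeq2 and limma-voom also called 0. At an unadjusted p under 0.05 there were 3 members (Ireb2, Ncoa4 and Tfrc), where 9.18% of all genes passed that mark. All 10 members passed the filter on low counts. Of the 3, 2 were higher in the libraries labelled Lpar3-/- (3.97% of all genes) and 1 lower (5.21%). A positive log2 fold change, labelled Lpar3-/- over WT, was found in 6 members (48.9% of all genes) and a negative one in 4 (51.1%). Their median was 0.042 and their range -0.27 to 0.25, and the median of all genes tested was -0.0036. In 2 members the groups did not overlap, which held for 13.7% of all genes. The differences of single members follow by role, with expression in CPM (counts scaled to a common library total with TMM) for differences and FPKM, which is per gene length, for levels.

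**Figure D1:**
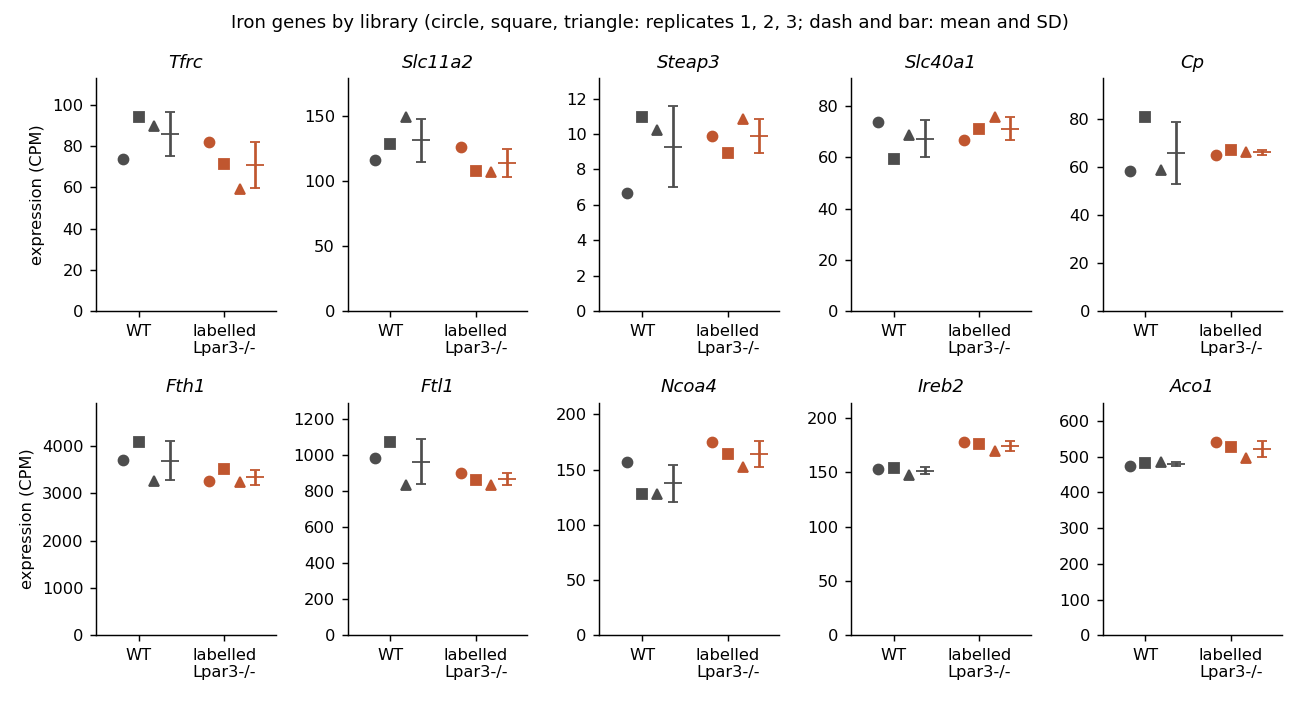
Expression in CPM of the 10 iron genes in each library, WT in grey and labelled Lpar3-/- in orange, with circle, square and triangle for replicates 1, 2 and 3 and the mean and SD beside them; each axis starts at 0. The 3 orange points lie above the 3 grey ones for Ireb2 and Aco1, and the groups overlap for the other 8 genes.

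Per gene length the members spanned from ferritin heavy chain, among the most abundant mRNAs of the kidney, to Steap3. Fth1 had a mean of 4016 deposited FPKM over the 6 libraries, the 11th highest of the genes tested, with a range from 3691 to 4690. Ftl1 followed at 678 (613 to 797) and Aco1 at 110 (104 to 120), and these 3 did not overlap with each other or with any other member. The next 4 overlapped with their neighbours: Slc11a2 ran from 16.7 to 23.1 FPKM, Ireb2 from 15.4 to 18.7, Ncoa4 from 13.5 to 18.7 and Tfrc from 9.50 to 15.1. Slc40a1 (6.58 to 8.34 FPKM) and Cp (6.03 to 8.39) overlapped with each other and lay below Tfrc. Steap3 was lowest, from 1.15 to 1.90 FPKM. The deposited Fth1 length is 866 bases. In GENCODE M21 the merged exons of its 9 transcripts cover 3469 bases, which need not be the length of any single mRNA. Those models start at base 9980598, upstream of the deposited start at 9982703. With a longer length its FPKM would be lower, and which length fits the kidney mRNA was not tested.

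**Figure D2:**
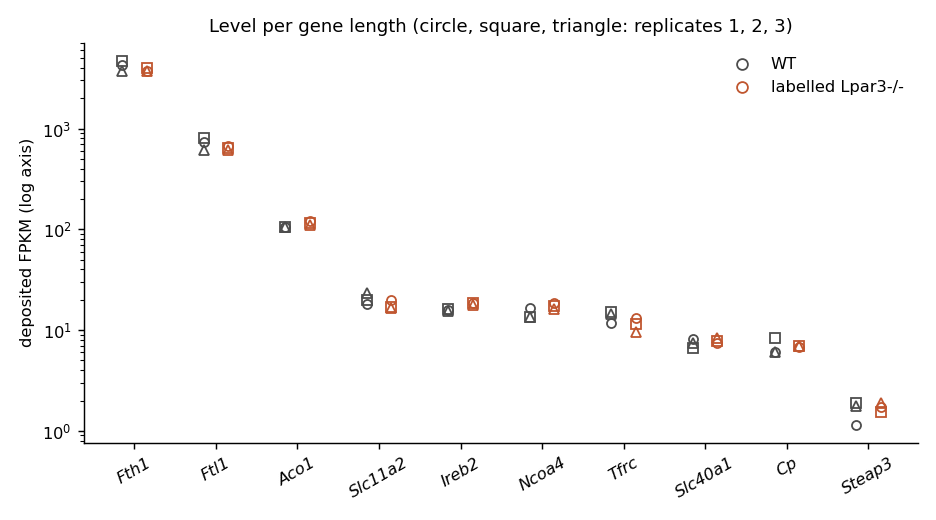
Deposited FPKM of each member in each library on a log axis, ordered by the mean over 6 libraries, WT in grey and labelled Lpar3-/- in orange. Fth1 stands at 3691 FPKM or more in every library and Steap3 at 1.90 or less, while Slc11a2, Ireb2, Ncoa4 and Tfrc lie close together between 9.50 and 23.1.

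Both iron sensors had a higher mean in the group labelled Lpar3-/-, and neither was called. Ireb2 encodes IRP2, which is broken down in cells that have both iron and oxygen. It had 153, 154 and 148 CPM in WT replicates 1 to 3 and 178, 176 and 169 CPM in the libraries labelled Lpar3-/-. The 2 groups did not overlap, and the spread within each was small (151 ± 3.49 against 174 ± 4.54 CPM, SD, n = 3 each). The estimated difference was 15.1%, or 0.20 on the log2 scale (SE 0.064, 95% interval 0.063 to 0.34). The unadjusted p was 0.00833 and the adjusted p 0.303 (edgeR quasi-likelihood). By unadjusted p it was the 418th of the genes tested. With each library left out in turn its log2 fold change stayed between 0.19 and 0.23 and its unadjusted p stayed under 0.05, while its adjusted p was never below 0.275.

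Aco1 encodes IRP1, which works as an aconitase in the cytosol while it holds an iron-sulfur cluster and binds RNA without it. It had 473, 481 and 485 CPM in WT and 542, 525 and 497 CPM in the libraries labelled Lpar3-/-. Here too the groups did not overlap, though WT replicate 3 and labelled Lpar3-/- replicate 3 were close. This is a difference of 0.12 on the log2 scale, with a 95% interval from -0.030 to 0.27 and an SE of 0.069 (edgeR adjusted p = 0.664). Ireb2 and Aco1 were the 2 members whose libraries labelled Lpar3-/- all lay above WT, which held for 6.58% of all genes tested, and no member had them all below, which held for 7.12%. Per gene length Aco1 was several times as abundant as Ireb2 in each library, with a ratio of their FPKM of 6.68 ± 0.211 in WT and 6.30 ± 0.113 in the libraries labelled Lpar3-/- (SD, n = 3 each).

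Ncoa4, the receptor that takes ferritin to the lysosome, had the largest positive difference among the members. It had 157, 128 and 128 CPM in WT and 175, 165 and 152 CPM in the libraries labelled Lpar3-/-. WT replicate 1 lay inside the range of the other group, and WT replicates 2 and 3 below it. On the log2 scale the difference was 0.25 (95% interval from 0.055 to 0.45, SE 0.091). Its unadjusted p was 0.0166 and its edgeR adjusted p 0.378. It was 0.36 without WT replicate 1 (edgeR adjusted p = 0.0804) and 0.20 without WT replicate 2 or labelled Lpar3-/- replicate 1 (0.563 and 0.677).

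Both ferritin genes had lower means in the Lpar3-/- labelled group, by less than the spread within WT. Fth1, the heavy chain that oxidises iron for storage, had 3696, 4086 and 3261 CPM in WT against 3258, 3502 and 3225 CPM. Ftl1, the light chain that helps the mineral core form, had 985, 1074 and 831 CPM in WT against 902, 863 and 836 CPM. In both genes WT replicate 2 was the highest of the 6 libraries, and WT replicate 3 lay near the libraries labelled Lpar3-/-. The log2 fold change was -0.15 for each, with 95% intervals of -0.34 to 0.052 for Fth1 and -0.35 to 0.051 for Ftl1 (edgeR adjusted p = 0.703 and 0.693). Without WT replicate 2 they were -0.063 and -0.067, and without WT replicate 3 they were -0.22 and -0.24. The 2 chains kept nearly the same proportion, with an FPKM ratio of heavy to light chain of 5.92 ± 0.137 in WT and 5.95 ± 0.344 in the libraries labelled Lpar3-/- (SD, n = 3 each).

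Ferritin genes have processed copies elsewhere in the genome, among which reads may have been split or dropped. Of the copies named as such in the table, Ftl1-ps1 is annotated as protein-coding, not as a processed pseudogene. It had 227 to 341 counts in a library, where Ftl1 had 13709 to 18151, and its log2 fold change was -0.034 (edgeR adjusted p = 0.967). Ftl2-ps, Fth-ps2 and Ftl1-ps2, annotated as processed pseudogenes, had at most 8 counts in any library. Some of the exonic bases of Ftl1, 34.6%, are shared with other annotated genes, Gm10252 on the opposite strand and Gm22133, which had at most 2 counts. Whether the counting used strand, and how it treated reads matching several genes, is not given in the sources. These low counts therefore do not show whether Ftl1 lost reads there.

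**Figure D3:**
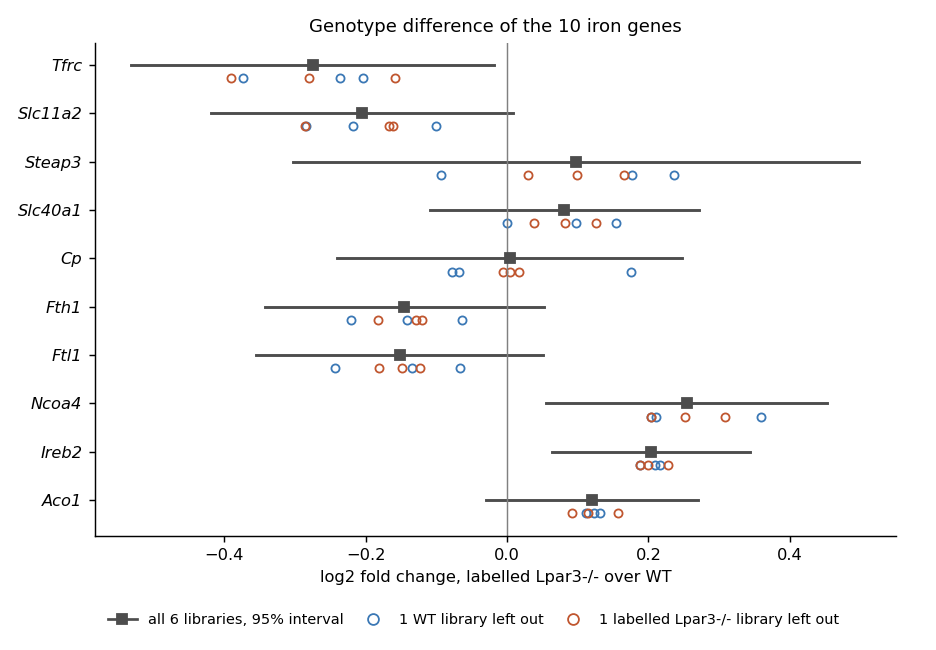
Log2 fold change of each member, labelled Lpar3-/- over WT: squares and lines are the estimate and 95% interval from all 6 libraries (edgeR quasi-likelihood), and open circles the estimates with 1 library left out. The intervals of Tfrc, Ncoa4 and Ireb2 do not reach 0, without adjustment for the number of genes tested, and the open circles lie on both sides of 0 for Cp and Steap3.

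The genes of iron entry were mixed. Tfrc, the transferrin receptor and a known target of the hypoxia-inducible factors, had 73.5, 94.0 and 89.8 CPM in WT against 81.7, 71.5 and 59.3 CPM. The groups overlapped, with replicate 1 of the Lpar3-/- labelled group above WT replicate 1. On the log2 scale the difference was -0.27 (95% interval from -0.53 to -0.018, SE 0.12). Its unadjusted p was 0.0377 and its edgeR adjusted p 0.505. It ranged from -0.39 without labelled Lpar3-/- replicate 1 (edgeR adjusted p = 0.401) to -0.16 without replicate 3 of the same group (0.922), so its size depended on single libraries.

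Slc11a2, the divalent metal transporter that moves iron out of endosomes, had 116, 129 and 149 CPM in WT against 126, 108 and 107 CPM. The groups overlapped through WT replicate 1 and labelled Lpar3-/- replicate 1. Its log2 fold change was -0.21 (SE 0.098, 95% interval -0.42 to 0.0085, edgeR adjusted p = 0.566), and -0.10 without WT replicate 3. A stretch of 6.33% of its exonic bases is shared with Gm5475 on the opposite strand, which had 5 to 13 counts in a library.

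Steap3, the endosomal reductase that acts between those 2 steps, had 6.66, 10.9 and 10.2 CPM in WT against 9.91, 8.94 and 10.9 CPM. WT replicate 1 was low and the other 5 libraries were close to one another. With 118 to 188 counts in a library it was the least precisely measured member (log2 fold change 0.098, SE 0.18, 95% interval -0.30 to 0.50, edgeR adjusted p = 0.929). Without WT replicate 1 its log2 fold change was -0.093.

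For the genes of iron exit the differences were within the spread between replicates. Slc40a1, which encodes ferroportin, the exporter, had 73.9, 59.6 and 68.6 CPM in WT against 66.8, 71.3 and 75.7 CPM (log2 fold change 0.081, SE 0.087, 95% interval -0.11 to 0.27, edgeR adjusted p = 0.859). Without WT replicate 2, its lowest library, the value was 0.00016 on the log2 scale.

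Cp encodes ceruloplasmin, the copper oxidase that readies exported iron for transferrin, and is also a known target of the hypoxia-inducible factors. It had 58.2, 80.8 and 58.8 CPM in WT against 64.9, 67.1 and 66.3 CPM. WT replicate 2 lay above all others and the remaining WT libraries below them, while the libraries labelled Lpar3-/- were within a narrow range. Its log2 difference was 0.0036, with a 95% interval from -0.24 to 0.25 and an SE of 0.11 (edgeR adjusted p = 0.997), and 0.18 without WT replicate 2 (edgeR unadjusted p = 0.0312 and adjusted p = 0.489 in that fit). A share of 1.13% of its exonic bases lies in Hps3 on the opposite strand, which had 521 to 677 counts in a library.

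Of the wider iron pathway, in lists chosen by name, edgeR called 2 genes, Blvra and Hmox1, both in heme breakdown. It called none in the other iron lists, and 0.374% of all genes tested. DESeq2 called Blvra, Hmox1 and 2 more (Slc39a8 and Fbxl5), and limma-voom called Blvra only. Over all 15225 genes tested DESeq2 called 179, where edgeR called 57 and limma-voom 55. In the list of heme transport and breakdown 12 genes were tested and edgeR called 2 lower, where it called 0.25% of all genes lower. A negative fold change was found in 9 of the 12 (51.1% of all genes). Blvra, which reduces biliverdin, the product of heme cleavage, to bilirubin, had 113, 97.3 and 98.0 CPM in WT against 74.7, 75.1 and 79.7 CPM. Its log2 difference was -0.43 with an SE of 0.076 (edgeR adjusted p = 0.0386). Hmox1, heme oxygenase 1, which frees iron from heme, had 62.5, 77.2 and 75.4 CPM in WT against 54.0, 51.3 and 46.0 CPM. Its log2 difference was -0.51 with an SE of 0.094 (edgeR adjusted p = 0.0462). In both genes the groups did not overlap. Hp, haptoglobin, which binds free hemoglobin, had 8.55 ± 3.52 against 3.52 ± 2.64 CPM (SD, n = 3 each), with groups that overlapped (log2 fold change -1.30, edgeR adjusted p = 0.347), and Blvrb had a log2 fold change of 0.18. The list's median log2 fold change was -0.090. With single libraries left out, Blvra missed the threshold by edgeR in 5 of 6 fits, with adjusted p of 0.0562 and 0.0604 when WT replicate 1 or 3 was dropped, and of 0.185, 0.199 and 0.163 when replicate 1, 2 or 3 of the other group was. Hmox1 also missed it in 5 of 6, with 0.0779 and 0.141 on dropping WT replicate 2 or 3, and 0.108, 0.181 and 0.287 on dropping replicate 1, 2 or 3 of the other group. By limma-voom Hmox1 missed the threshold (adjusted p = 0.0561). By limma on log2(FPKM + 1) neither was called (adjusted p = 0.295 for Blvra and 0.337 for Hmox1). Markers of some other cells were lower in the same libraries. All 12 macrophage markers, all 6 injured tubule markers and all 7 tested adipocyte markers had negative log2 fold changes (51.1% of all genes). Their medians were -0.58, -0.70 and -1.49. Markers of the remaining cell types listed went in both directions. Their medians ran from -0.43 (hepatocytes) to 0.15 (thick ascending limb, distal tubule and collecting duct). Cd163 stands both in the macrophage list and in the heme list. The part of any of these cell types in the values of Blvra, Hmox1 and Hp was not tested.

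The cytosolic chaperones of iron and the genes that control the IRPs had 0 calls by edgeR among 8 tested and a median of 0.023. At an unadjusted p under 0.05 there was 1 (9.18% of all genes). DESeq2 called 1 and limma-voom 0. Their lowest p was that of Fbxl5, the iron-sensing subunit of the ubiquitin ligase that marks IRP2 for breakdown. It had 62.0, 64.3 and 56.5 CPM in WT against 75.7, 79.1 and 77.2 CPM, with groups that did not overlap (log2 fold change 0.34, SE 0.071). It missed the threshold by edgeR (adjusted p = 0.0722) and passed it by DESeq2 (adjusted p = 0.0172). Over the alternatives with all 6 libraries its adjusted p ran from 0.00518 to 0.451, and with 1 library left out it was at least 0.0525. Pcbp2, a chaperone that hands iron to ferritin, had 169 ± 13.4 against 182 ± 4.61 CPM (log2 fold change 0.11), Bola2 had a log2 fold change of -0.11 and Glrx3 one of 0.080.

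Other iron transporters, reductases and ferroxidases had 0 calls by edgeR among 9 tested and a median of 0.022. At an unadjusted p under 0.05 there were 4, where 9.18% of all genes passed that mark. DESeq2 called 1 and limma-voom 0. Slc39a8, a carrier of zinc, manganese and iron, had 62.0, 78.8 and 66.3 CPM in WT against 90.3, 92.0 and 92.2 CPM (difference of 0.41 on the log2 scale, SE 0.086). It missed the threshold by edgeR (adjusted p = 0.0767) and passed it by DESeq2 (adjusted p = 0.00654). It lies 10.3 Mb from Lpar3 on chromosome 3, and whether the stretch of chromosome around the targeted gene differs between the groups was not tested. With 1 library left out its edgeR adjusted p was 0.00724 without WT replicate 2 and from 0.117 to 0.354 in the other 5 fits. Steap2, a relative of Steap3, had 117 ± 8.69 against 135 ± 7.13 CPM (log2 fold change 0.21), and Heph, the membrane relative of ceruloplasmin, 13.0 ± 2.44 against 17.0 ± 1.19 CPM (0.39). Steap4, another relative of Steap3, had 4.45 ± 0.357 against 2.67 ± 0.351 CPM (-0.73, SD, n = 3 each). None of these 3 passed adjustment (edgeR adjusted p = 0.391, 0.399 and 0.257).

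In the transferrin and hepcidin axis 6 genes were tested, with 0 called by edgeR, DESeq2 or limma-voom and a median of 0.016. At an unadjusted p under 0.05 there was 1 (9.18% of all genes). Id1, which responds to the bone morphogenetic proteins that report iron stores in the liver, had 38.2 ± 2.64 against 48.5 ± 1.28 CPM (log2 fold change 0.35, edgeR adjusted p = 0.0977), and Bmp6, one of those proteins, 171 ± 8.68 against 155 ± 6.54 CPM (-0.14, adjusted p = 0.573). Neo1 and Hfe had log2 fold changes of 0.081 and 0.043. Hamp had 0 counts in every library, which allows up to 3, and Hamp2 and Hfe2 at most 3 in a library. Transferrin, listed under its mouse symbol Trf, had 6 to 21 counts in a library.

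**Figure D4:**
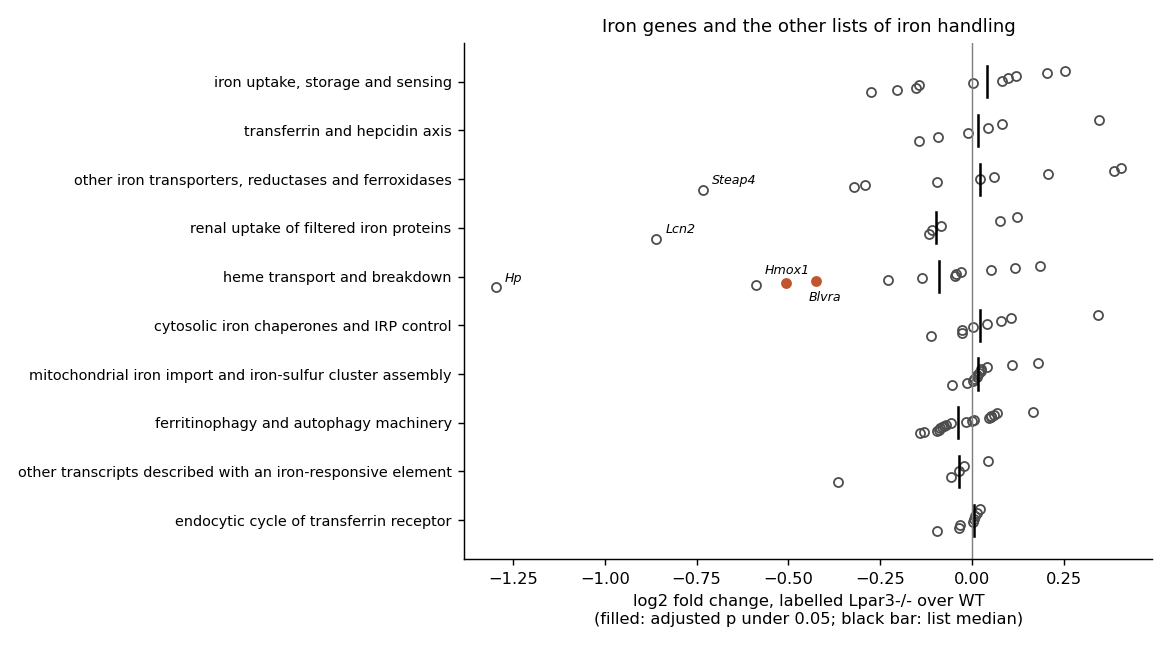
Log2 fold change, labelled Lpar3-/- over WT, of each tested gene of the iron lists, 1 row per list, with the list median as a black bar and filled points for genes with an adjusted p under 0.05 (edgeR quasi-likelihood). The 2 filled points are Hmox1 and Blvra, and the points of the 3 lists on cluster assembly, autophagy and receptor cycling lie between -0.14 and 0.18.

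Around the ferritin receptor and the transferrin receptor, the cellular machinery showed small differences. EdgeR, DESeq2 and limma-voom called 0 of 18 autophagy genes, and 0 had an edgeR unadjusted p under 0.05 (1 with each of the other tools). These genes had log2 fold changes from -0.14 (Sqstm1, a cargo receptor, 831 ± 11.7 against 754 ± 8.69 CPM) to 0.17 (Atg7, 24.6 ± 0.566 against 27.6 ± 1.03 CPM). Atg16l1 and Ulk1 had -0.13 and -0.088. Of 8 genes of receptor endocytosis and recycling the 3 tools called 0, and 0 had an unadjusted p under 0.05 with any of them. The largest difference was that of Snx3, a sorting nexin of the receptor's return path (-0.094). Exoc6, Clta and Rab5a lay between -0.034 and 0.022.

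Mitochondrial iron import and iron-sulfur cluster assembly had 12 genes tested, with 0 called and 0 at an unadjusted p under 0.05 by each of edgeR, DESeq2 and limma-voom. Of these 10 were positive (48.9% of all genes), with a median of 0.017. Slc25a28, a mitochondrial iron importer, had the largest difference (0.18, SE 0.10), followed by Iba57 (0.11), and Glrx5 had -0.054. Of the other mRNAs described with an iron-responsive element 5 were tested, and the same 3 tools gave 0 calls and 0 at an unadjusted p under 0.05. Among them Epas1, a hypoxia-inducible factor subunit, had 163 ± 6.17 against 159 ± 5.31 CPM (-0.036, SE 0.067), and Alas2, the erythroid enzyme of heme synthesis, 12.2 ± 4.73 against 9.49 ± 4.57 CPM. Cdc42bpa and Cdc14a had 0.044 and -0.058.

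Among the genes by which tubules recover filtered iron proteins, 6 were tested, and edgeR, DESeq2 and limma-voom called 0. At an unadjusted p under 0.05 there was 1 (9.18% of all genes). That was Lcn2, a carrier of iron-binding siderophores and an injury marker, with 5.81, 10.7 and 5.99 CPM in WT against 3.08, 4.53 and 4.80 CPM. Its log2 difference was -0.86 with an SE of 0.26 (edgeR adjusted p = 0.287). The receptor genes were abundant, as with Cubn, which had means of 308 and 336 CPM (log2 fold change 0.12, SE 0.093). Amn and Dab2, their partners, had -0.11 and -0.084.

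Library totals ran from 15953794 to 17940438 counts over named genes, and the 10 members took 0.521% to 0.620% of them. Lpar3 itself had overlapping levels (36.3 ± 1.31 against 36.4 ± 2.51 CPM, SD, n = 3 each), so the count of the targeted gene does not tell the groups apart. The directions in these results therefore depend on the labels being right. Epo, the erythropoietin named in the series title, had 3.37 to 3.89 CPM in WT and 0.945 to 1.14 CPM in the other group (edgeR adjusted p = 0.0136). Markers of the kidney's own segments were abundant in every library, with 8 proximal tubule markers summing to 20865 CPM or more and 5 podocyte markers to 355 CPM or more. Of the 8 proximal tubule markers 4 had an edgeR unadjusted p under 0.05 (9.18% of all genes), in both directions. Slc5a12 and Aqp1 were higher (log2 fold changes 0.38 and 0.25) and were called by DESeq2 only. Over all genes tested DESeq2 called 179, where edgeR called 57. Slc5a2 and Slc22a6 were lower (-0.30 and -0.19). The 8 markers of thick ascending limb, distal tubule and collecting duct summed to 4440 to 5020 CPM in WT. In the other group they summed to 5266 to 5628 CPM. A positive fold change was found in 7 of the 8 (48.9% of all genes). Among them Slc12a1 had a log2 fold change of 0.39 (edgeR adjusted p = 0.0613) and was called by DESeq2 and limma-voom. The part of these segment differences in the members' values was not tested.

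Markers of other cells that handle iron were present. The 12 macrophage markers summed to 138 to 208 CPM in WT, with WT replicate 2 at the top, and to 115 to 135 CPM in the libraries labelled Lpar3-/-. All 12 had negative fold changes (51.1% of all genes), with 0 called by edgeR, DESeq2 or limma-voom. At an edgeR unadjusted p under 0.05, 5 were lower (5.21% of all genes), and no marker was at 0 counts. WT replicate 2 was also the highest library for Fth1, Ftl1, Tfrc, Cp and Steap3. It was the lowest for Slc40a1 and Ncoa4, and neither for Slc11a2, Ireb2 and Aco1. The 6 injured tubule markers summed to 85.3 to 179 CPM in WT, again highest in WT replicate 2, and to 73.3 to 82.9 CPM in the other group. All 6 had negative fold changes (51.1% of all genes), and the 3 tools called 0. At an edgeR unadjusted p under 0.05, 5 were lower (5.21% of all genes). In 4 the groups did not overlap (7.12% of all genes in that direction). In a whole kidney, fewer cells of a type and less RNA per cell cannot be told apart, and the part of these cells in the members' values was not tested.

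Blood was present in both groups at overlapping levels. The 9 erythroid markers found in the table summed to 395 to 660 CPM in WT and 371 to 624 CPM in the libraries labelled Lpar3-/-. Adipocyte markers other than Pck1, which the proximal tubule also expresses, summed over 7 genes to 183 to 339 CPM in WT and 124 to 197 CPM in the other group. Of the 8 adipocyte markers 7 were tested, Pck1 included, and all 7 had negative fold changes (51.1% of all genes). At an edgeR unadjusted p under 0.05, 6 were lower (5.21% of all genes). In 5 the groups did not overlap (7.12% of all genes in that direction). EdgeR and limma-voom called 0 of them. DESeq2 called Plin1, and over all genes it called 179 where edgeR called 57. The lowest edgeR adjusted p was 0.0525, for Cidec (log2 fold change -1.78). The 8 hepatocyte markers summed to 84.7 to 148 CPM in WT and 76.4 to 93.3 CPM in the other group. Of these 4 were tested, with 0 called by the 3 tools. At an edgeR unadjusted p under 0.05, 2 were lower (5.21% of all genes), Ttr with a log2 fold change of -0.64 and Apoa2 with -1.26. Alb went the other way, with 0.61 (edgeR unadjusted p = 0.0626), and Apob had -0.22. Fgb was at 0 in every library, and Ahsg and Serpina1c had at most 10 counts. The part of blood, fat and liver RNA in the members' values was not tested.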

How the data were processed

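Kidney poly(A) RNA of 6 hypoxic mouse samples, 3 per group, was sequenced. The deposited table holds whole-number counts of reads per gene, not normalized by the authors. The second holds FPKM made by the authors, and recomputation showed them to be these counts divided by gene length and a library size. The build GRCm38, DESeq2 1.20.0, featureCounts 1.5.0-p3 and HISAT2 2.0.5 were used, per the submitters' processing notes. For strand, annotation release and reads matching several genes, the settings are not given in the sources. The 377 rows without a gene name, 0.259% to 0.362% of the counts, were left out.

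Groups and replicate numbers came from the sample titles. The test was edgeR 4.0.16 (quasi-likelihood F-test, R 4.3.3) on all 6 libraries with TMM, the default filter, no covariate and Benjamini-Hochberg adjustment over 15225 genes. SE and 95% intervals were derived from the F statistic. Alternatives were DESeq2 1.42.0, limma-voom (limma 3.58.1), RLE and upper quartile scaling, no filter, a strict filter (a mean CPM of 1 or more, and 3 libraries with 10 or more counts), a replicate block, each library left out, and limma on FPKM values on a log2 scale with pseudocounts of 1 and 0.1, for genes with a mean FPKM of 0.1 or more. Scripts were tested on simulated data.

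The members and lists were chosen with earlier results of these data known. All members are named. Of each other iron list, called genes and the 4 with the lowest p are named, except for 1 gene that is not reported here. Trf, the same alternatives for Blvra, Hmox1, Fbxl5, Slc39a8 and Id1, and the adipocyte sum without Pck1 were chosen after seeing the data.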

Additional observations from a re-analysis of the deposited data

How the results depend on the processing

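No member was called under any of the 15 alternatives, and 8 of the 10 kept the sign of their log2 fold change in all of them. Cp turned to -0.078 without WT replicate 1, -0.068 without WT replicate 3 and -0.0064 without labelled Lpar3-/- replicate 2, and Steap3 to -0.093 without WT replicate 1. With 1 library left out, Cp ran from -0.078 to 0.18 and Steap3 from -0.093 to 0.24. The lowest adjusted p of a member was 0.0595, for Tfrc without a filter. The count of 57 genes called over all was 179 by DESeq2, 520 without a filter, 5 on log2(FPKM + 1) and 6 on log2(FPKM + 0.1), and it ran from 12 to 149 with 1 library left out. The cause was not tested. Hmox1 also missed the threshold with the strict filter (adjusted p = 0.0510) and the replicate block (0.0588), and on log2(FPKM + 0.1) neither Hmox1 (0.454) nor Blvra (0.415) was called. A pairing of the samples by replicate number was not shown. Same-numbered libraries correlated at 0.011, 0.031 and 0.067 in their deviations from the group means, and not every library correlated best with its own number. With 3 libraries per group these values cannot decide whether the samples were paired. With the replicate block 80 genes and 0 members were called, and the lowest adjusted p of a member was 0.202 (Ncoa4). Depth was lowest for Steap3, at 118 to 188 counts in a library. The SE of the members ran from 0.064 (Ireb2) to 0.18 (Steap3).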
